A study of Mus musculus with 18 samples.

Results

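The genes described here were 10 transcription factors that specify conventional dendritic cells (DCs), namely Irf8, Irf4, Batf3, Id2, Nfil3, Zeb2, Klf4, Zbtb46, Bcl6 and Runx3. They were found in the count table by the Ensembl identifier of each symbol and made up 10 of its 54232 genes. The table held 18 RNA-seq libraries of sorted mouse DCs, in 6 groups of 3. Each group was a subset, CD11b+, CD103+ or positive for both (double positive, DP), taken from the small intestinal lamina propria (LP) or from the intestinal lymph nodes (LN). Every library was labelled C57BL/6J and CD11a KO, a knockout of the integrin subunit that Itgal encodes, so the genotype was shared by all groups and no wild-type library was analysed here. The labels name no infection, age or pooling for these libraries, and the gate they give for the DCs of the study was live, single, CD45+, CD64-, MHCII high and CD11c+.

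Conventional DCs take up antigen in tissues and carry it to lymph nodes, where they prime T cells. They form a pair of lineages, cDC1, which cross-present antigen to CD8+ T cells, and cDC2, which mainly prime CD4+ T cells. In the intestine, CD103+ CD11b- DCs are known as cDC1, while CD11b+ and DP DCs are known as cDC2. Lymph nodes hold DCs that arrived from the tissue and DCs that are resident there.

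The members with a known part in cDC1 were led by Irf8 (ENSMUSG00000041515, chr8:120736358-120756694, + strand of GRCm38), which specifies cDC1 and keeps them in that fate. Batf3 (ENSMUSG00000026630, chr1:191097847-191108945, +) sustains Irf8 expression in cDC1. Id2 (ENSMUSG00000020644, chr12:25093799-25097140, -) blocks E proteins such as E2-2, and Nfil3 (ENSMUSG00000056749, chr13:52967209-52981073, -) acts early in cDC1 and in innate lymphoid cells. Bcl6 (ENSMUSG00000022508, chr16:23965052-23988852, -) is a repressor with a known part in cDC1. Of the factors with a known part in cDC2, Irf4 (ENSMUSG00000021356, chr13:30749226-30766976, +) supports their survival and migration, and Klf4 (ENSMUSG00000003032, chr4:55527143-55532466, -) is needed for a part of them. Zeb2 (ENSMUSG00000026872, chr2:44983632-45117395, -) opposes the cDC1 fate, and Runx3 (ENSMUSG00000070691, chr4:135120652-135177990, +) mediates responses to TGF-beta. Zbtb46 (ENSMUSG00000027583, chr2:181387762-181459426, -) marks conventional DCs of both lineages.

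The promoters of 5 members are shown, since Irf8 and Zeb2 varied most between groups, Irf4 ran against Irf8, Batf3 hardly varied, and Bcl6 encodes a factor whose own motif was searched. Each window runs from 250 bases before to 50 bases after a RefSeq start site of GRCm38.p6, 5′ to 3′ on the strand of the gene, and capitals mark matches to the motifs named after them.
Irf8, chr8:120736108-120736407 (+): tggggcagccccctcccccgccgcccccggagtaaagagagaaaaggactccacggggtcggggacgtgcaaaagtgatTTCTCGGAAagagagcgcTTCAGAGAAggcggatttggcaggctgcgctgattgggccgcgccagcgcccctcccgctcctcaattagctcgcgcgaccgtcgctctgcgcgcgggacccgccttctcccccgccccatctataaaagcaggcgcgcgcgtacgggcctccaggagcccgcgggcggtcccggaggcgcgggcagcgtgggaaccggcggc
Batf3, chr1:191098164-191098463 (+): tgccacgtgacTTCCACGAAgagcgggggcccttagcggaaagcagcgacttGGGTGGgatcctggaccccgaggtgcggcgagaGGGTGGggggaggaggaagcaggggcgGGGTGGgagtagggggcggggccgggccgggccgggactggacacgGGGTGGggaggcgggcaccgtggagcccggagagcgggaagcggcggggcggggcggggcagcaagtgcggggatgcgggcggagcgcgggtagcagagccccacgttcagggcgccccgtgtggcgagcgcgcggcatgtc
Bcl6, chr16:23988803-23989102 (-): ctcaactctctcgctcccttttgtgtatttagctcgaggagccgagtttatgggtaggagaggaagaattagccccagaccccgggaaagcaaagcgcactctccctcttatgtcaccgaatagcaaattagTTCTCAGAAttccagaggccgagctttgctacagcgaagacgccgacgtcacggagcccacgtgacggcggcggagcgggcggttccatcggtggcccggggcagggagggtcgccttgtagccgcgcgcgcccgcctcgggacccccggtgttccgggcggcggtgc
Irf4, chr13:30748983-30749282 (+): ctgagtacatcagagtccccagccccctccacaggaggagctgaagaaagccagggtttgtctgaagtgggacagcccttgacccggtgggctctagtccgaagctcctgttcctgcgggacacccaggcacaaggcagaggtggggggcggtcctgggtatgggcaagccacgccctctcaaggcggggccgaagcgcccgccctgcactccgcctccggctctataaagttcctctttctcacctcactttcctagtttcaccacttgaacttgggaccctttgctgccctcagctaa
Zeb2, chr2:45117393-45117692 (-): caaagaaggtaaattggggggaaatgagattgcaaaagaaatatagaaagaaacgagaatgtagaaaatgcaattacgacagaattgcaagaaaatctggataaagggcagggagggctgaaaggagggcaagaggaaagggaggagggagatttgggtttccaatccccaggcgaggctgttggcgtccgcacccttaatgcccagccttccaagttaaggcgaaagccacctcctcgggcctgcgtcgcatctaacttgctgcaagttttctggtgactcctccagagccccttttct

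Letters were searched on both strands, and matches of different motifs may overlap. The BCL6/STAT palindrome TTCNNNGAA was in the windows of 3 of the 10 members, Irf8, Batf3 and Bcl6, and in 8.30% of all 32851 RefSeq windows of this length. In Irf8 it matched as TTCTCGGAA and TTCAGAGAA, in Batf3 as TTCCACGAA and in Bcl6 as TTCTCAGAA. The KLF box CCACCC was in the windows of 4 members (Batf3, Id2, Zbtb46 and Runx3) and in 31.5% of all windows, and the other capitals in Batf3 mark it on the opposite strand. The E2-box CAGGTG was in those of Zbtb46 and Runx3 (20.2% of windows), the AP-1 motif TGANTCA in that of Zbtb46 (7.81%) and the RUNX motif TGTGGT in that of Runx3 itself (16.8%). The letters of the IRF half-site pair GAAANNGAA (8.56% of windows), the ETS-IRF composite GGAANNGAA (8.24%) and the NFIL3 palindrome TTANNTAA (6.00%) were in no member's window, and the windows searched for Irf4 and Zeb2 held none of the 8 motifs. Each member was searched in the window whose start site lies nearest its 5′ end in GENCODE. RefSeq gave 4 windows for Zeb2 and 2 each for Irf8, Bcl6 and Runx3, so motifs in their other windows would be missed. The windows of Batf3, Id2 and Zbtb46 lie wholly inside the gene as GENCODE annotates it, that of Zbtb46 farthest from the annotated 5′ end, so the window printed for Batf3 is of a start site downstream of that end.

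The authors deposited raw counts per gene, with 23574292 to 46901985 counts in a library. Levels are given as CPM, the counts divided by a library size that was scaled by TMM, given per 1000000, and each mean is followed by its SD over 3 libraries. Within each tissue, Itgae, which encodes CD103, was higher in CD103+ and DP than in CD11b+ libraries. It was far lower in the LN, at 27.0 to 40.0 CPM in CD103+ libraries against 1238 to 1440 CPM in LP CD103+. The LP CD11b+ libraries held 92.1 to 293 CPM of Itgae. Itgam, which encodes CD11b, was higher in CD11b+ and DP than in CD103+ libraries, where it was at most 1.26 CPM in either tissue. In LN DP libraries it was at most 5.76 CPM, against 63.2 to 76.4 CPM in LP DP. The LN CD11b+ libraries held 13.8 to 25.7 CPM of Itgam. It was called lower in LN DP than in LN CD11b+ (log2 fold change -2.01 ± 0.29), although both labels name CD11b. Summed over 14 cDC1 markers, Itgae among them, LN CD103+ libraries held 1165 to 1332 CPM, a range that overlapped that of LN DP (905 to 1270) and of LN CD11b+ (991 to 1198) and lay under the 15390 to 16081 of LP CD103+. So in the LN the label CD103+ was not set apart by this sum. A mean of at least 10 CPM was reached by 13 of the 14 markers in LN CD103+, 13 in LN CD11b+ and 14 in LN DP. Singly, 6 markers were called higher and 2 lower in LN CD103+ than in LN CD11b+ (10.2% and 15.6% of all genes). Xcr1 held 94.9 to 103 CPM in LN CD103+, 44.4 to 49.0 in LN CD11b+ and 53.2 to 87.6 in LN DP. Tlr3 went the other way, at 6.57 to 10.3, 20.2 to 24.6 and 16.5 to 21.4 CPM in that order. Counts on Itgal, the targeted gene, were present in all libraries (6.45 to 26.6 CPM), and which part of the gene was deleted was not known, so they check nothing. All LP libraries carried Ddx3y of the Y chromosome and hardly any Xist, while all LN libraries carried Xist, and replicate 3 of LN CD11b+ and replicate 3 of LN DP carried both. Sex therefore cannot be told apart from tissue in the comparisons of LN with LP. With those 2 libraries left out, 85 of 90 member values of the 9 pairwise comparisons kept their direction and call, 4 uncalled values changed sign and the call of Zeb2 in LP DP against CD11b+ was lost.

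Between the 6 groups, Zeb2 spanned 58.7-fold in mean CPM and Irf8 55.6-fold. Irf4 spanned 12.5-fold, Id2 10.3-fold, Nfil3 9.87-fold, Runx3 6.32-fold, Klf4 5.96-fold and Bcl6 4.76-fold. Batf3 (1.71-fold) and Zbtb46 (1.47-fold) varied least. In CPM per kb of exon, which allows genes to be set beside each other, Id2 was the highest of the 10 in every group but LP CD103+, where Irf8 was highest. Zeb2, whose summed exons are the longest of the set, was the lowest of the 10 in every group. Irf8 in LP CD103+ lay above 99.8% of the 17056 tested genes with a known length, and Zeb2 in the same libraries above 12.6%.

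**Figure D1:**
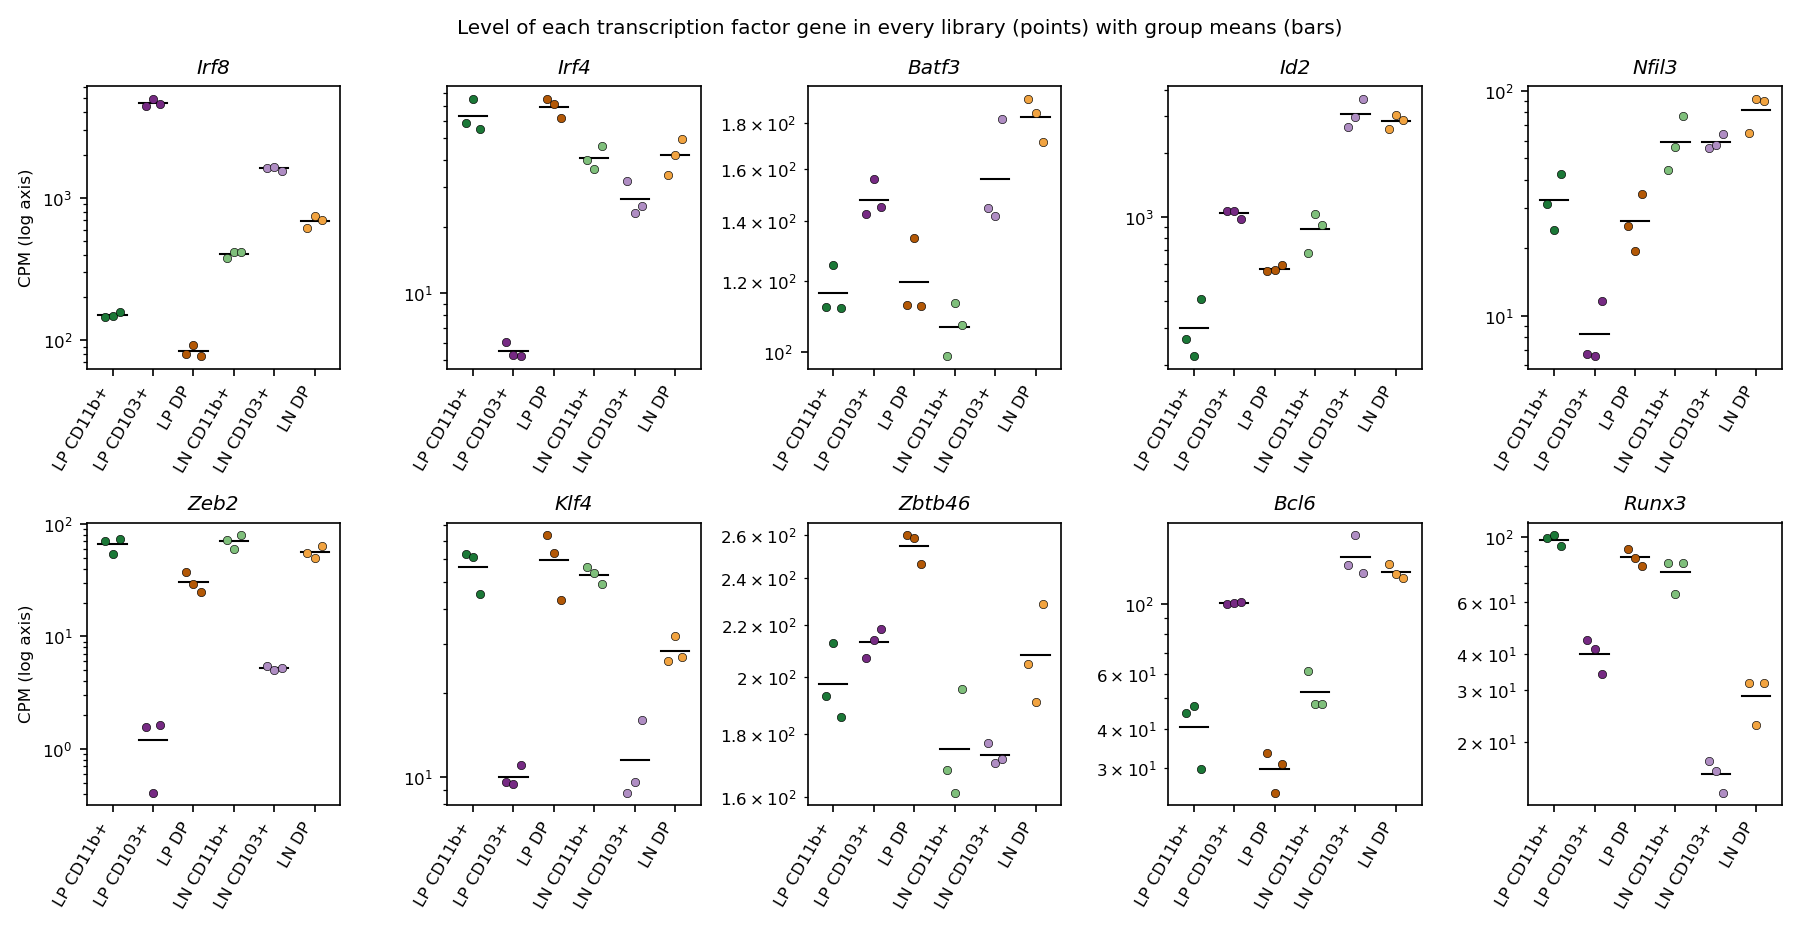
Level of each factor in CPM (log axis, a scale of its own for each gene) in the 3 libraries of each of 6 groups. Points are libraries and bars are group means. Irf8 is highest and Irf4, Zeb2, Klf4 and Nfil3 have their lowest mean in LP CD103+, while Batf3 and Zbtb46 stay within a 1.71-fold range of group means.

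Irf8 was highest in CD103+ DCs of the LP and lowest in DP DCs of the LP. In the LP it stood at 4441, 4969 and 4540 CPM in the CD103+ libraries, at 147, 148 and 158 CPM in the CD11b+ libraries and at 80.8, 92.6 and 77.4 CPM in the DP libraries. In the LN, the CD103+ libraries held 1635, 1656 and 1554 CPM, the DP libraries 618, 749 and 701 CPM and the CD11b+ libraries 381, 416 and 419 CPM. No pair of groups overlapped, and the order of means was LP CD103+ (4650 ± 281), LN CD103+ (1615 ± 54.0), LN DP (689 ± 66.7), LN CD11b+ (405 ± 21.3), LP CD11b+ (151 ± 6.29) and LP DP (83.6 ± 7.95). The log2 fold change of CD103+ over CD11b+ was 4.95 ± 0.10 (SE) in the LP (adjusted p = 1.5e-14) and 1.99 ± 0.091 in the LN (adjusted p = 3.3e-11). From LP to LN, Irf8 fell by 1.53 ± 0.090 in CD103+ DCs (adjusted p = 2.6e-10) and rose by 1.43 ± 0.090 in CD11b+ (adjusted p = 5.1e-09) and by 3.04 ± 0.095 in DP DCs (adjusted p = 6e-13), all on the log2 scale. DP DCs held less Irf8 than CD11b+ DCs in the LP and more in the LN, with log2 values of -0.85 ± 0.089 and 0.77 ± 0.089 that passed the limit on p but not the limit of a fold of 2.

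Irf4 ran the other way. The LP CD103+ libraries held 6.05, 5.29 and 5.22 CPM, against 58.5, 74.7 and 54.9 CPM in LP CD11b+ and 75.1, 70.9 and 61.5 CPM in LP DP. In the LN the levels were closer together, at 32.0, 23.0 and 24.9 CPM in CD103+, 39.9, 36.2 and 46.1 CPM in CD11b+ and 34.2, 41.9 and 49.4 CPM in DP libraries. LP DP and LP CD11b+ overlapped, as did LN DP and LN CD11b+, and LP CD103+ lay apart from all other groups. In the LP, the log2 fold change of CD103+ over CD11b+ was -3.51 ± 0.18 (adjusted p = 1.6e-10), and in the LN it was -0.61 ± 0.16 (adjusted p = 0.0035), short of the limit on fold. Between tissues Irf4 rose by 2.27 ± 0.17 in CD103+ DCs (adjusted p = 5.2e-09), while its value was -0.62 ± 0.16 in CD11b+ and -0.73 ± 0.16 in DP DCs, neither of them called.

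Set against each other per kb of exon, Irf8 exceeded Irf4 by 510 to 653 times in LP CD103+ libraries, by 35.5 to 49.99 times in LN CD103+, by 9.87 to 12.6 times in LN DP and by 6.32 to 7.99 times in LN CD11b+. The ratio was 1.37 to 2.00 in LP CD11b+ and 0.747 to 0.907 in LP DP, the sole group with less Irf8 than Irf4. The 6 groups did not overlap in this ratio, and those of the LN lay between the extremes of the LP.

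**Figure D2:**
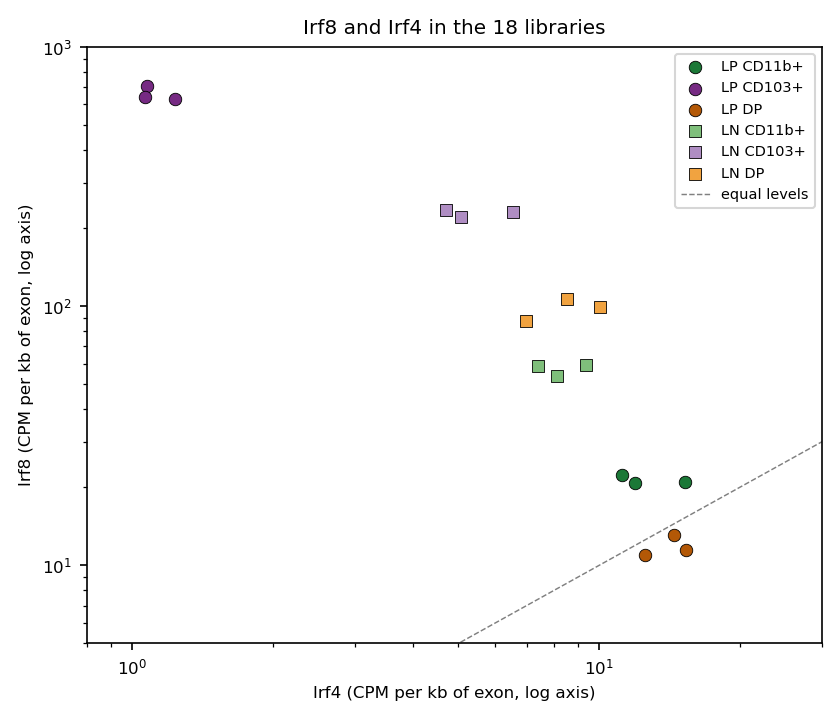
Irf8 against Irf4 in CPM per kb of exon (both axes log), a point for each of 18 libraries, circles for LP and squares for LN, with a dashed line of equal levels. LP CD103+ lies at high Irf8 and low Irf4 with a ratio of 510 to 653, LP DP lies under the line, and the LN groups lie between.

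Batf3, the partner of Irf8, differed little. It stood at 112, 125 and 112 CPM in LP CD11b+, 143, 156 and 145 CPM in LP CD103+, and 113, 134 and 113 CPM in LP DP libraries. In the LN it stood at 99.0, 114 and 107 CPM in CD11b+, 145, 142 and 182 CPM in CD103+, and 191, 185 and 172 CPM in DP libraries. Its highest mean was in LN DP, which overlapped LN CD103+, and LN CD103+ overlapped LP CD103+. None of 9 pairwise comparisons was called for Batf3 by edgeR, although 3 of them passed the limit on adjusted p and 6 had an unadjusted p under 0.05, and DESeq2 called none either. The values of those 3 were 0.61 ± 0.099 for DP DCs between tissues (adjusted p = 5.4e-05), 0.55 ± 0.099 for CD103+ over CD11b+ in the LN (adjusted p = 0.00018) and 0.78 ± 0.100 for DP over CD11b+ in the LN (adjusted p = 8.5e-06).

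Id2 was higher in the LN than in the LP in each subset. It stood at 266, 221 and 412 CPM in LP CD11b+, at 1072, 1074 and 986 CPM in LP CD103+, and at 554, 561 and 594 CPM in LP DP libraries. In the LN it stood at 681, 1038 and 924 CPM in CD11b+, at 2681, 2959 and 3622 CPM in CD103+, and at 2614, 3050 and 2868 CPM in DP libraries. LN CD103+ and LN DP overlapped, and so did LP CD103+ and LN CD11b+. Id2 rose from LP to LN by 1.55 ± 0.19 in CD11b+ (adjusted p = 8e-06), 1.56 ± 0.19 in CD103+ (adjusted p = 2e-06) and 2.32 ± 0.20 in DP DCs (adjusted p = 2.9e-08). The rise was not called as different between subsets (F test, adjusted p = 0.036). CD103+ DCs held more Id2 than CD11b+ DCs in both tissues, by 1.80 ± 0.19 in the LP (adjusted p = 1.2e-06) and 1.81 ± 0.19 in the LN (adjusted p = 5.9e-07). DP DCs exceeded CD11b+ DCs by 1.69 ± 0.19 in the LN (adjusted p = 2.3e-06), while in the LP the difference was 0.93 ± 0.19 (adjusted p = 0.003), short of the limit on fold.

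Nfil3 was lowest where Irf8 was highest. The LP CD103+ libraries held 6.76, 6.60 and 11.6 CPM, the LP CD11b+ libraries 31.2, 23.9 and 42.7 CPM and the LP DP libraries 25.0, 19.4 and 34.7 CPM. In the LN, it stood at 44.2, 56.0 and 77.3 CPM in CD11b+, at 55.7, 57.5 and 63.8 CPM in CD103+ and at 64.8, 91.9 and 89.5 CPM in DP libraries, with CD11b+ overlapping each of the others. Nfil3 rose between LP and LN by 2.84 ± 0.29 in CD103+ (adjusted p = 2e-07) and by 1.64 ± 0.27 in DP DCs (adjusted p = 5.5e-05). In CD11b+ DCs its value was 0.86 ± 0.26 (adjusted p = 0.016), and it passed both limits without LP CD11b+ replicate 3 (1.10) or without LN CD11b+ replicate 1 (1.03). In the LP it was lower in CD103+ than in CD11b+ DCs by -1.98 ± 0.28 on the log2 scale (adjusted p = 2.5e-05), and in the LN that difference was -0.0028 ± 0.26.

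Bcl6 was high in CD103+ DCs of both tissues and in DP DCs of the LN alone. The LP CD103+ libraries held 100, 101 and 102 CPM, against 44.8, 47.3 and 29.9 CPM in LP CD11b+ and 33.5, 25.0 and 30.8 CPM in LP DP. The LN CD103+ libraries held 133, 166 and 126 CPM and the LN DP libraries 134, 124 and 121 CPM, which overlapped, against 60.9, 48.1 and 48.0 CPM in LN CD11b+. Bcl6 rose by 2.09 ± 0.16 from LP to LN in DP DCs (adjusted p = 8.9e-09), while the values in CD11b+ (0.37 ± 0.15) and CD103+ DCs (0.49 ± 0.15) were not called. The tissue effect of DP DCs exceeded that of CD11b+ DCs by 1.72 ± 0.22 (adjusted p = 2e-05) and that of CD103+ DCs by 1.60 ± 0.22 (adjusted p = 5e-05). CD103+ DCs exceeded CD11b+ DCs by 1.31 ± 0.16 in the LP and 1.44 ± 0.16 in the LN (adjusted p = 3.8e-06 and 7.4e-07).

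Among factors of the cDC2 lineage, Zeb2 was lowest in CD103+ DCs of both tissues. The LP CD103+ libraries held 1.56, 0.409 and 1.63 CPM, from 44, 19 and 40 counts, and the LN CD103+ libraries 5.43, 5.06 and 5.26 CPM. It stood at 71.1, 53.5 and 74.0 CPM in LP CD11b+, 72.4, 59.7 and 79.1 CPM in LN CD11b+, 37.1, 29.0 and 25.0 CPM in LP DP and 55.4, 49.6 and 63.5 CPM in LN DP libraries. LN CD11b+, LP CD11b+ and LN DP overlapped in that order, and the other groups lay apart. CD103+ DCs held less Zeb2 than CD11b+ DCs, with log2 values of -5.89 ± 0.33 in the LP (adjusted p = 7.1e-10) and -3.74 ± 0.29 in the LN (adjusted p = 1.2e-08). In CD103+ DCs it rose by 2.23 ± 0.33 from LP to LN (adjusted p = 1.6e-05), and its values were 0.088 ± 0.25 in CD11b+ and 0.89 ± 0.25 in DP DCs, neither called. In the LP, DP DCs held less Zeb2 than CD11b+ DCs (-1.13 ± 0.25, adjusted p = 0.0061), a call that was lost without LP CD11b+ replicate 1 (-1.07), LP CD11b+ replicate 3 (-1.04), LP DP replicate 2 (-1.09) or LP DP replicate 3 (-1.002), where the adjusted p was 0.022 to 0.039. Of its exon bases, 3.30% lie in exons of other genes, among them the antisense Zeb2os, which was at most 3.26 CPM in any library and which counting without strand would not separate.

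Klf4 was low in CD103+ DCs of both tissues. It stood at 62.8, 61.2 and 45.0 CPM in LP CD11b+, 9.62, 9.44 and 11.02 CPM in LP CD103+, and 73.2, 63.0 and 43.0 CPM in LP DP libraries. In the LN it stood at 56.2, 53.6 and 48.9 CPM in CD11b+, 8.79, 9.62 and 16.04 CPM in CD103+, and 25.9, 31.9 and 26.8 CPM in DP libraries. LP DP, LP CD11b+ and LN CD11b+ overlapped, as did both CD103+ groups. The log2 fold change of CD103+ over CD11b+ was -2.49 ± 0.22 in the LP and -2.20 ± 0.22 in the LN (adjusted p = 1.3e-07 and 2.9e-07). From LP to LN it fell in DP DCs by 1.08 ± 0.21 (adjusted p = 3e-04), a call that was lost without LP DP replicate 1 (-0.91), and its values in CD11b+ (-0.091 ± 0.21) and CD103+ DCs (0.20 ± 0.22) were not called.

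Runx3 was lower in the LN than in the LP in CD103+ and DP DCs. The LP libraries held 99.3, 102 and 93.3 CPM in CD11b+, 44.6, 41.5 and 34.1 CPM in CD103+, and 91.4, 85.1 and 79.9 CPM in DP DCs. The LN libraries held 81.8, 64.1 and 82.0 CPM in CD11b+, 17.2, 15.9 and 13.4 CPM in CD103+, and 31.8, 22.9 and 31.7 CPM in DP DCs. LP DP and LN CD11b+ overlapped and no other neighbours in the order of means did. Runx3 fell by 1.37 ± 0.14 in CD103+ (adjusted p = 2.9e-07) and by 1.57 ± 0.14 in DP DCs (adjusted p = 5.3e-08), against -0.37 ± 0.13 in CD11b+ DCs (adjusted p = 0.04). In the LN it was lower in CD103+ (-2.29 ± 0.14, adjusted p = 1.1e-09) and in DP (-1.40 ± 0.14, adjusted p = 5.3e-07) than in CD11b+ DCs, while in the LP the CD103+ value was -1.29 ± 0.14 (adjusted p = 1.1e-06) and the DP value -0.20 ± 0.13 (adjusted p = 0.41). The tissue effect of DP DCs lay under that of CD11b+ DCs by -1.20 ± 0.19 (adjusted p = 0.00017).

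Zbtb46, the marker of conventional DCs, was present in all groups, within a 1.47-fold range of means. Its libraries ranged from 186 to 213 CPM in LP CD11b+, 207 to 218 in LP CD103+, 246 to 260 in LP DP, 161 to 196 in LN CD11b+, 170 to 177 in LN CD103+ and 191 to 229 in LN DP. LP DP lay above all other groups, and every other group overlapped its neighbour in the order of means. No pairwise comparison was called for Zbtb46 by edgeR or DESeq2, although 3 of 9 passed the limit on adjusted p and 6 had an unadjusted p under 0.05. The farthest from 0 was that of LP DP over LP CD11b+, at 0.37 ± 0.082 (adjusted p = 0.0056), and the others past the limit on p were the tissue effects in CD103+ (-0.30 ± 0.082, adjusted p = 0.0044) and DP DCs (-0.29 ± 0.082, adjusted p = 0.0056). The tissue effects showed no called difference between subsets (F test, adjusted p = 0.57).

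The comparison of LN with LP asks how DCs in the node differ from DCs in the gut wall. A gene was called at an adjusted p under 0.01 (edgeR quasi-likelihood test, Benjamini-Hochberg over 17074 genes) and a fold over 2. All 10 members passed the filter on low counts. In CD11b+ DCs, 2 of 10 members were called, Irf8 and Id2, both higher in the LN, where 15.2% of all tested genes were called (10.3% higher and 4.93% lower). In CD103+ DCs, 6 were called, with Irf4, Id2, Nfil3 and Zeb2 higher and Irf8 and Runx3 lower, against 35.0% of all genes (19.8% higher and 15.1% lower). In DP DCs, 6 were called, with Irf8, Id2, Nfil3 and Bcl6 higher and Klf4 and Runx3 lower, against 32.1% of all genes (18.6% higher and 13.6% lower). Id2 was called higher in all 3 subsets. Nfil3 and Bcl6 were also higher in the LN in each subset with no overlap between the libraries of the tissues, but in CD11b+ DCs neither was called, nor was Bcl6 in CD103+ DCs. The share of all genes that were called, or did not overlap, in all 3 subsets was not counted. These statements on Id2, Nfil3 and Bcl6 therefore describe single genes and do not set them apart from other genes. The median log2 fold change of the members was -0.0018 in CD11b+, 0.34 in CD103+ and 0.75 in DP DCs, beside 0.031, 0.036 and 0.068 over all genes.

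**Figure D3:**
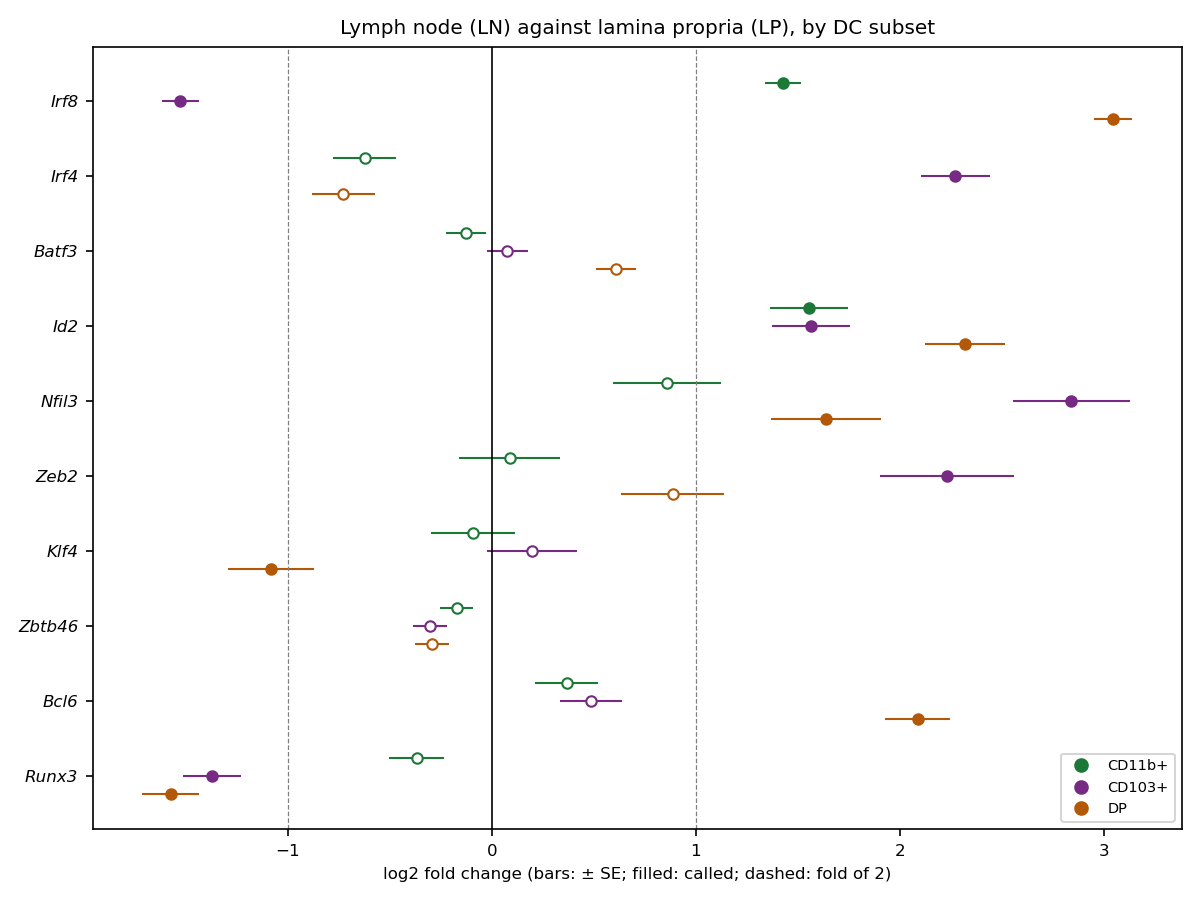
Log2 fold change of LN over LP for each factor in CD11b+, CD103+ and DP DCs, with bars of ± SE from 3 libraries a group. Filled points were called, and dashed lines mark a fold of 2. Irf8 lies at -1.53 in CD103+ DCs and at 1.43 and 3.04 in CD11b+ and DP DCs, and Irf4 lies at 2.27 in CD103+ DCs and under 0 in the other subsets.

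The tissue effect differed between subsets for 8 of 10 members by the F test (adjusted p under 0.01, no limit on fold), where 31.5% of all genes did, and Id2 and Zbtb46 were the exceptions. Between CD103+ and CD11b+ DCs, 5 members were called (18.5% of all genes), with a tissue effect in CD103+ minus that in CD11b+ DCs above 0 for Irf4 (2.89 ± 0.23), Nfil3 (1.98 ± 0.38) and Zeb2 (2.14 ± 0.41) and under 0 for Irf8 (-2.95 ± 0.13) and Runx3 (-1.0004 ± 0.19). For Irf8 and Irf4 the effects in these subsets had opposite signs. Between DP and CD11b+ DCs, 3 were called (11.6% of all genes), which were Irf8 (1.62 ± 0.13), Bcl6 and Runx3. Between DP and CD103+ DCs, 4 were called (8.37% of all genes), with Irf8 (4.57 ± 0.13) and Bcl6 above 0 and Irf4 (-3.00 ± 0.23) and Klf4 (-1.28 ± 0.30) under 0. These differences share libraries with each other and with the tissue comparisons.

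Within a tissue, the subsets were compared in pairs. In the LP, CD103+ DCs differed from CD11b+ DCs in 8 of 10 members (15.7% of all genes called, 5.07% higher and 10.6% lower), with Irf8, Id2 and Bcl6 higher and Irf4, Nfil3, Zeb2, Klf4 and Runx3 lower. DP and CD11b+ DCs of the LP differed in 1 member, Zeb2 (4.81% of all genes, 1.14% higher and 3.67% lower). DP and CD103+ DCs of the LP differed in 7 members (13.6% of all genes, 8.10% higher and 5.52% lower), with Irf4, Nfil3, Zeb2, Klf4 and Runx3 higher in DP and Irf8 and Bcl6 lower. The call of Runx3 there (1.09 ± 0.14) was lost without LP CD103+ replicate 3, at 0.98.

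In the LN, CD103+ DCs differed from CD11b+ DCs in 6 members (25.9% of all genes, 10.2% higher and 15.6% lower), with Irf8, Id2 and Bcl6 higher and Zeb2, Klf4 and Runx3 lower. DP and CD11b+ DCs of the LN differed in 3 members (16.7% of all genes, 6.92% higher and 9.82% lower), with Id2 and Bcl6 (1.27 ± 0.16) higher and Runx3 lower in DP. DP and CD103+ DCs of the LN differed in 3 members (6.53% of all genes, 4.69% higher and 1.84% lower), with Zeb2 (3.42 ± 0.28) and Klf4 (1.30 ± 0.22) higher and Irf8 (-1.23 ± 0.089) lower in DP. Comparisons within a tissue share libraries, so their values are not independent. Without the TMM scaling, on total counts, the median of all genes moved from -0.13 to -0.56 in LN CD103+ against CD11b+ and from -0.076 to -0.44 in LN DP against CD11b+, and the share of called genes that were higher went from 39.6% to 19.5% and from 41.3% to 19.3%. On that scale Irf4 was called lower in LN CD103+ (-1.04) and Klf4 lower in LN DP (-1.28), and Bcl6 was no longer called in LN DP (0.90).

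**Figure D4:**
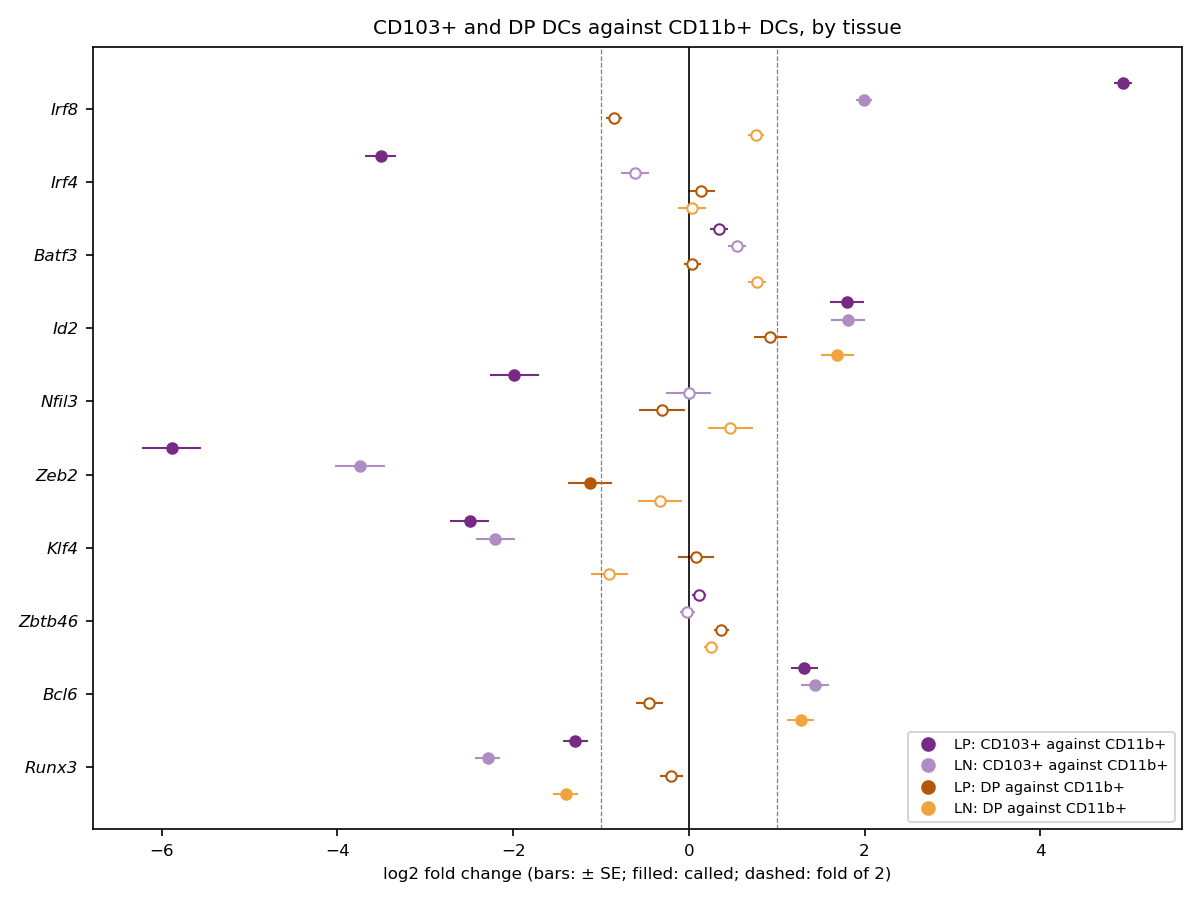
Log2 fold change of CD103+ and DP DCs over CD11b+ DCs of the same tissue for each factor, with bars of ± SE from 3 libraries a group. Filled points were called, and dashed lines mark a fold of 2. Irf8 at 4.95 and Zeb2 at -5.89 in LP CD103+ DCs lie farthest from 0, and their LN values, 1.99 and -3.74, lie nearer to it.

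Markers of other cells and of DC state moved with some of these values. The sum of 17 genes of DC maturation was 867 to 2237 CPM over the LP libraries, 4629 to 6675 CPM in LN CD11b+, 25379 to 27283 CPM in LN DP and 32280 to 33601 CPM in LN CD103+. The sum of 12 T cell genes was 11.6 to 50.6 CPM in the LP and 842 to 1321 CPM in the LN, with 11 of the 12 at a mean of 10 CPM or more in each LN group and with none of the list at 0 in any group. Much of the LN sum was Tcf7, at 286 to 332 CPM in CD11b+, 449 to 574 in CD103+ and 489 to 676 in DP libraries. Cd4 added 207 to 237 CPM in LN CD11b+. Cd3e held 23.8 to 42.9 CPM in LN CD11b+, 39.0 to 70.6 in LN CD103+ and 29.4 to 53.9 in LN DP. Bcl6, Id2 and Runx3 are also used by T cells, and the part of such cells in the tissue comparisons was not tested. In bulk libraries, fewer cells of a type and less RNA per cell cannot be told apart.

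The sum of 8 genes of NK cells and ILCs, which depend on Id2 and Nfil3, lay at 42.0 to 231 CPM in the LP and at 282 to 896 CPM in the LN. A mean of at least 10 CPM was reached by 7 of the 8 in LN CD11b+, 5 in LN DP and 2 in LN CD103+. The LN CD103+ sum was 282 to 323 CPM, with Il7r at 160 to 186, Klrk1 at 91.5 to 114 and Ncr1 at most 2.74 CPM. From LP to LN, 7 of the 8 were called higher in CD11b+, 7 in CD103+ and 8 in DP DCs, with medians of 4.27, 4.12 and 4.46 on the log2 scale, beside the rise of Id2 in each subset. Within the LN the sum was highest in CD11b+ (531 to 896 CPM), where Id2 was lowest. The part of NK cells and ILCs in the levels of Id2 and Nfil3 was not tested. The sum of 9 plasma cell genes was 9430 to 14049 CPM in LP CD11b+ and 1988 to 2204 CPM in LP DP, and the levels of Irf4, which plasma cells also use, overlapped between these groups. The sum of 10 genes of macrophages and monocytes was 720 to 1567 CPM in LP CD11b+, 359 to 515 CPM in LN CD11b+, 318 to 363 CPM in LP DP, 101 to 111 CPM in LN DP and at most 58.9 CPM in the CD103+ groups. Zeb2, which macrophages use too, was likewise lowest in the CD103+ groups, and in LP DP against CD11b+, where Zeb2 was the member called, 7 of these 10 genes were called lower and 1 higher (median -3.14). LP CD11b+ and LN DP lay apart in the sum and overlapped in Zeb2. The part of plasma cells in the levels of Irf4 and of macrophages in those of Zeb2 was not tested. Fcgr1, which encodes the excluded CD64, was at most 11.1 CPM in any library. The sum of 9 B cell genes was 281 to 1058 CPM, of 8 plasmacytoid DC genes 135 to 380 CPM and of 11 epithelial genes 28.5 to 860 CPM, and their part in the values of the members was not tested. The epithelial sum was highest in LP DP (579 to 860 CPM), where 2 of the 11 had a mean of at least 10 CPM, Epcam (412 to 524 CPM) and Cdh1 (140 to 264 CPM). In LP CD11b+ the sum was 234 to 603 CPM, with 5 of the 11 at such a mean. In LP DP against CD11b+, 2 of the 11 were called higher and 0 lower (1.14% and 3.67% of all genes). The median of the 11 there was -1.51, so the list as a whole did not point to LP DP.

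**Figure D5:**
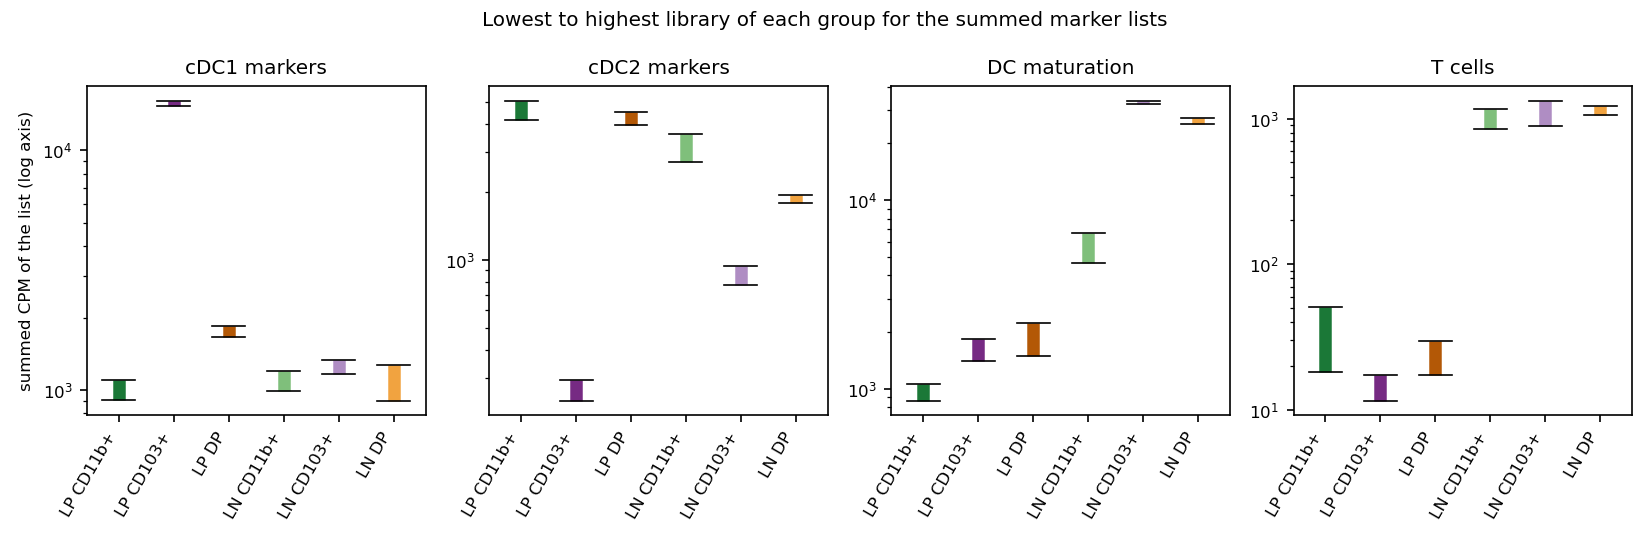
Summed CPM (log axis) of the lists of cDC1 markers, cDC2 markers, DC maturation genes and T cell genes, with a bar from the lowest to the highest of 3 libraries in each group. The cDC1 sum is 15390 to 16081 in LP CD103+ and 905 to 1853 elsewhere, and the T cell sum is at most 50.6 in the LP and at least 842 in the LN.

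Of 42 other regulators of DC fate and function, all were tested. In the comparison of LN with LP, 9 were called higher and 4 lower in CD11b+ DCs, 20 and 7 in CD103+ DCs, and 19 and 5 in DP DCs, with medians of 0.41, 0.87 and 0.77 on the log2 scale. Of all genes, 15.2%, 35.0% and 32.1% were called in these comparisons, with medians of 0.031, 0.036 and 0.068. Among called genes that averaged 10 CPM or more in the LN, the 3 largest rises were of Spib, Relb and Ikzf3 in each subset. Spib is an ETS factor of plasmacytoid DCs and B cells, Relb an NF-kappaB subunit of mature DCs, and Ikzf3 a lymphoid Ikaros factor. In CD11b+ DCs, Irf7 lay next to Spib at the same 2.25. Relb went from 82.1 to 2053 CPM in CD103+ DCs (4.64 ± 0.14), from 137 to 2376 CPM in DP DCs (4.12 ± 0.14) and from 181 to 887 CPM in CD11b+ DCs (2.29 ± 0.13). Spib rose by 7.45 ± 0.38, 4.95 ± 0.31 and 2.25 ± 0.27 in the same order. Runx1, a paralogue of Runx3, was among the 3 largest falls in each subset, by 1.88 ± 0.14 in CD103+, 2.26 ± 0.14 in DP and 1.80 ± 0.14 in CD11b+ DCs. The other falls named by the rule were Myc and Ahr in CD11b+, Mycl and Bcl11a in CD103+, and Myc and Tbx21 in DP DCs. Mycl, a Myc family factor that cDC1 use, went from 536 to 51.6 CPM in CD103+ DCs (-3.37 ± 0.15).

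Between CD103+ and CD11b+ DCs, 3 of the 42 other regulators were called higher and 15 lower in the LP, and 5 and 10 in the LN, where 15.7% and 25.9% of all genes were called. Their medians were -0.56 and -0.19, beside -0.043 and -0.13 over all genes. In the LP the rises were of Mycl (2.49 ± 0.15), Zfp366 (1.69 ± 0.12), which encodes DC-SCRIPT, and Batf2 (1.08 ± 0.22), a relative of Batf3. The largest falls there were of Spib (-5.38 ± 0.38), Cebpb (-3.77 ± 0.27) and Bhlhe40 (-3.54 ± 0.16). In the LN the largest rises were of Irf1 (2.32 ± 0.13), Rbpj (1.67 ± 0.098) and Zfp366 (1.42 ± 0.12), and the falls included those of Cebpb (-3.42 ± 0.26) and Bcl11a (-3.17 ± 0.20). For DP DCs, 7 were called lower than in LP CD11b+ (3.67% of all genes), and 12 higher and 4 lower than in LP CD103+ (8.10% and 5.52%). In the LN, 9 were called higher and 7 lower than in CD11b+ (6.92% and 9.82%), and 5 higher than in CD103+ (4.69%). The F test called 26 of the 42, and 31.5% of all genes.

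Genes of the likest pattern were found by the root mean square difference of log2 CPM, centred on each gene's mean, over the 18 libraries, among 8668 genes with a mean of at least 10 CPM. This is a description, since libraries of a group are alike and the points share their groups. Nearest to Irf8 were Agpat3 (0.49), Ffar4 (0.52) and Cadm1 (0.55), where the median over all genes was 2.01. Nearest to Irf4 were Rgs12, Panx1 and Bhlhe40 (0.46 to 0.48), and nearest to Zeb2 were Ticam2, Mcemp1 and Fcer1g (0.61 to 0.66). For Id2 these were Rab30 (0.29), Spint2 and 2200002D01Rik, for Nfil3 Ppp1r15a (0.35) and Fam53b, and for Klf4 Jun (0.43), N4bp3 and Il18. Bcl6 was nearest to Tap1 (0.29), Psen2 and St8sia4, and Runx3 to Txnip (0.24), Bin2 and Slc38a1. Batf3 and Zbtb46 spanned too little for the measure to be used.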

How the data were processed

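DCs were RNA-sequenced in 18 libraries, 3 in each of 6 groups of subset and tissue, as the labels give them. The authors deposited raw counts of reads per gene, without normalization, listed by Ensembl identifier, and 54079 of 54232 identifiers were matched to a symbol. The submitters' processing notes name STAR 2.6, FastQC 0.11.7 and GRCm38. For the DC libraries of the study, the methods give unique alignments and counting that ignores strand, so reads of overlapping antisense genes are not separated. Whether these libraries were handled with the same settings is not stated in the labels or methods.

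From the counts, genes with low counts were left out with filterByExpr, libraries were scaled by TMM, and the 17074 genes left were tested with edgeR 4.0.16 (R 4.3.3) in a single quasi-likelihood fit of all 18 libraries with a mean for each group. The limits for a call were a Benjamini-Hochberg adjusted p under 0.01 and a fold over 2, after the methods of the study, and by the F test at an adjusted p under 0.01. The SE of a log2 fold change was its size over the square root of F. CPM used TMM-scaled library sizes, and lengths per kb were of merged exons of GENCODE vM21, from which positions were taken. Promoter windows and their letters came from RefSeq (GRCm38.p6), and all 10 members matched. The fits were tested on simulated counts.

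The members and gene lists were chosen with earlier results of these data known. All 10 members are named. Other regulators are named in 5 comparisons, where they were called, were among the 3 that rose or the 3 that fell most, and averaged 10 CPM or more in either group. Likest genes are the 3 nearest to each member whose group means span at least 2 on the log2 scale. The remaining genes are checks of the labels. Some genes that these rules pick are not reported here.

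The labels do not say whether libraries of a group came from separate mice, so p-values measure the spread between these libraries, which may be technical. No pair of replicates agreed within sampling noise (chi-square per gene of 14.9 to 64.9). Replicates carry the letters A to C in all groups. Deviations from group means correlated between libraries of the same letter at 0.18 to 0.25 for LP CD103+ with LP CD11b+ and with LP DP. All of these lay above 0.1, and for the other comparisons at least 1 pair lay under 0.1. The main fit held no term for the letter, so the tests reported were unpaired, and a block for the letter was used only as an alternative. Results were recomputed on total counts, with size factors of DESeq2, no filter, a filter of at least 100 counts in 3 libraries, an adjusted p under 0.05, no limit on fold, DESeq2 1.42.0, only the groups compared, a block for the replicate letter, and libraries left out.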

Additional observations from a re-analysis of the deposited data

Results flagged for a closer look

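For 8 of the 10 factors the effect of tissue, LN against LP, differed between the CD11b+, CD103+ and DP subsets by edgeR's F test, with adjusted p-values of 2.1e-12 for Irf8, 3.6e-08 for Irf4, 9.9e-06 for Bcl6, 0.00016 for Runx3, 0.0011 for Batf3, 0.0015 for Nfil3, 0.0016 for Zeb2 and 0.0054 for Klf4. Of all tested genes, 31.5% passed this test. For Irf8 the tissue effects were 1.43 in CD11b+, -1.53 in CD103+ and 3.04 in DP DCs, with no overlap between the libraries of the tissues in any subset. For Irf4 they were -0.62, 2.27 and -0.73 in the same order. For Batf3 they were -0.13, 0.077 and 0.61, none of them past a fold of 2.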

How the results depend on the processing

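Under the alternatives, 2514 of 2580 member values kept their direction and side of the limits, 8 lost a call, 25 gained a call and 33 changed sign, all of them uncalled values. Of 369 counts of members called, 361 stayed within 1.5 times. With no limit on fold, counts rose to 10 for DP DCs between tissues, 4 for LP DP against CD11b+, 6 for LN DP against CD11b+ and 5 for LN DP against CD103+. For LP DP against CD11b+ the count was 0 to 1 with a library left out and 0 with both mixed-sex libraries out, where edgeR gave an unadjusted p under 0.05 for 4 or 5 members and DESeq2 on all libraries called 1. The call lost there was that of Zeb2, and with fewer libraries its adjusted p was 0.011 to 0.039. Nfil3 in LN CD103+ against CD11b+ turned to 0.044 under DESeq2's size factors and under DESeq2, 0.031 with only the groups compared, 0.033 with the replicate block, 0.031 with it within tissue and 0.23 without the mixed-sex libraries, and Zbtb46 there to 0.031 under both DESeq2 settings, 0.016 with only the groups compared and 0.066 without the mixed-sex libraries. The replicate block changed no call of a member. On total counts, Klf4 turned to 0.047 in CD11b+ and -0.032 in CD103+ DCs between tissues, Batf3 to 0.010 and -0.15 there and to -0.019 in LP DP against CD11b+, and Zbtb46 to -0.12 and Irf4 to -0.33 in LN DP against CD11b+, where all genes shifted by a median of -0.44. Without the mixed-sex libraries, Zeb2 stood at -0.00055 in CD11b+ DCs between tissues and Irf4 at -0.00042 in LN DP against CD11b+. With each library left out, ranges across 0 were -0.044 to 0.19 for Zeb2 in CD11b+ DCs between tissues, -0.14 to 0.33 for Klf4 and -0.065 to 0.12 for Batf3 in CD103+ DCs between tissues, -0.088 to 0.27 for Klf4 and -0.046 to 0.097 for Batf3 in LP DP against CD11b+, -0.22 to 0.20 for Nfil3 and -0.11 to 0.034 for Zbtb46 in LN CD103+ against CD11b+, -0.11 to 0.15 for Irf4 in LN DP against CD11b+ and -0.20 to 0.017 for Id2 in LN DP against CD103+. Other calls that turned on a library were those of Zeb2 in DP DCs between tissues (1.06 without LP DP replicate 1), Id2 in LP DP against CD11b+ (1.23 without LP CD11b+ replicate 3), and Klf4 (-1.01 against CD11b+) and Runx3 (1.04 against CD103+) in LN DP without its replicate 2. The cause was not tested. Zeb2 in LP CD103+ rests on 19 to 44 counts a library, the fewest of any member.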

Other observations

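Genes that mark the lineages, apart from the factors, differed between subsets and tissues. Of 14 cDC1 markers, 14 were called higher in CD103+ than in CD11b+ DCs of the LP, with a median log2 fold change of 4.74, while 6 were called higher and 2 lower in the LN, with a median of 0.23. From LP to LN, 12 of the 14 fell in CD103+ DCs (median -3.47), and in DP DCs 8 rose and 2 fell (median 1.48). Xcr1, the chemokine receptor of cDC1, stood at 1391 to 1410 CPM in LP CD103+ and at 94.9 to 103 CPM in LN CD103+ libraries. Of 14 cDC2 markers, 13 were called lower in CD103+ than in CD11b+ DCs of the LP (median -6.06) and 12 in the LN (median -5.79). From LP to LN, 11 fell and 2 rose in DP DCs (median -3.42). In DP against CD11b+ DCs, 5 were called lower and 1 higher in the LP (median -0.23). In the LN, 13 were called lower and 0 higher in DP (median -3.04), where 9.82% and 6.92% of all genes were. In LN DP, 5 of the 14 had a mean of at least 10 CPM. Tmem176a alone held 1387 to 1506 CPM there, and the list summed to 1795 to 1932 CPM. The cDC1 list holds Itgae and the cDC2 list Itgam, on whose proteins the cells were sorted, so the differences of these between subsets come with the sort. Medians over all genes lay between -0.13 and 0.068 in these comparisons. Of all genes, 5.07% were called higher and 10.6% lower in CD103+ than in CD11b+ DCs of the LP, and 10.2% and 15.6% in the LN. From LP to LN, 19.8% were called higher and 15.1% lower in CD103+ DCs, and 18.6% and 13.6% in DP DCs. These lists were chosen with earlier results known, and no test compared markers with factors.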
